A study of Mus musculus with 8 samples.

Results

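Cytoplasmic actins, tropomyosins and the subunits of non-muscle myosin II were examined as a set of 10 genes picked by symbol, with earlier results of these data known, Actb, Actg1, Tpm1, Tpm2, Tpm3, Tpm4, Myl6, Myl12a, Myh9 and Myh10. Each symbol matched 1 row of the deposited table of 55681 genes, and all 10 were among the 14220 genes tested. RNA of the whole small intestine was sequenced from 8 mouse embryos at E15.5 on a C57BL6J background, with 1 intestine per library. The 4 controls were Slmapfl/fl, meaning that both Slmap alleles carried loxP sites. The other 4, labelled Slmap-cKO, were Slmapfl/fl and also carried a Cre transgene that the labels write as Dermo-Cre or Derom-Cre, while no Cre is given for the controls. Twist2, formerly called Dermo1, is a transcription factor gene of mesenchymal cells, and the libraries hold RNA of the epithelium and other cells as well. Slmap encodes a membrane-anchored protein of the STRIPAK phosphatase complex, and the series title links it with the kinase MST3 in elongation of the gut.

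Actin monomers assemble into filaments in every cell. Tropomyosins are coiled-coil proteins that lie along the filament in a head-to-tail chain and govern which myosins and severing factors can reach it. Non-muscle myosin II pulls on such filaments as a hexamer of heavy chains, essential light chains and regulatory light chains. In the fetal gut the same machinery shapes the epithelium, and the differentiating smooth muscle adds muscle isoforms of each protein. Tpm1, Tpm2 and Tpm3 each make both long, muscle-type and short or cytoplasmic tropomyosins by alternative promoters and splicing, and values per gene sum over these forms.

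The RefSeq table of promoter windows, on build GRCm38.p6, held 11 windows for 9 of the genes. Each ran from 250 bases before to 50 bases after an annotated start. No window was held for Actb, so its promoter was not searched. The windows were searched for the CArG box, the element bound by serum response factor, which drives many actin cytoskeleton genes. They were also searched for the core of the TEAD element, GGAATG or its reverse complement CATTCC. Through the TEAD element the Hippo effectors YAP and TAZ act. A CArG box was counted only as CC, a run of A or T, and GG, of the length of CCATATATGG, with no mismatch allowed. The CArG box is a palindrome, both motifs were read on both strands, and no match of one overlapped a match of the other. CArG boxes were found in 2 of the 11 windows, against 1.63% of 32851 windows of all genes, and TEAD cores in 3, against 14.7% of all windows. The windows below show the 2 genes with a CArG box (Actg1 and the downstream of the 2 starts of Myl6) and 3 tropomyosin genes, of which Tpm1 and Tpm2 had lower and Tpm4 had higher means in the libraries labelled cKO. Capitals mark the CArG box in Actg1 and Myl6 and the TEAD core in Tpm1, and Tpm2 and Tpm4 hold neither. The coordinates are chr11:120348446-120348745 on the minus strand for Actg1, chr10:128492960-128493259 on the minus strand for Myl6, chr9:67049164-67049463 on the minus strand for Tpm1, chr4:43523505-43523804 on the minus strand for Tpm2 and chr8:72135038-72135337 on the plus strand for Tpm4.
Actg1: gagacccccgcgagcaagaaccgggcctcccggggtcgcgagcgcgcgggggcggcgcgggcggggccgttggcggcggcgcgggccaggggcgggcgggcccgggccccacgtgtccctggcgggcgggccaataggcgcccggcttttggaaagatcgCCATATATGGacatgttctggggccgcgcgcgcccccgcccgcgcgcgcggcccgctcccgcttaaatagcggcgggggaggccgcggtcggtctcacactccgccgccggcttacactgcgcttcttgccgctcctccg
Myl6: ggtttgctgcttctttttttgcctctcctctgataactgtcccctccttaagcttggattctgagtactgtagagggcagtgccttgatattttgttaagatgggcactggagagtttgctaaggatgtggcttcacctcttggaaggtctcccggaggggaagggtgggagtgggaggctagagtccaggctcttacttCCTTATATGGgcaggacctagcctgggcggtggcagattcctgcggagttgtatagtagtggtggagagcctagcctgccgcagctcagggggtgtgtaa
Tpm1: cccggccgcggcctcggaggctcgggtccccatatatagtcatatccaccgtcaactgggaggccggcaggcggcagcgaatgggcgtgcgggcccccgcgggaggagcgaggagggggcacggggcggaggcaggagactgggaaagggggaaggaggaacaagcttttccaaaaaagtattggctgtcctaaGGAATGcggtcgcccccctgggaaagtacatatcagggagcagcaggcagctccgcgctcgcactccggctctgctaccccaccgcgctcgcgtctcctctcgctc
Tpm2: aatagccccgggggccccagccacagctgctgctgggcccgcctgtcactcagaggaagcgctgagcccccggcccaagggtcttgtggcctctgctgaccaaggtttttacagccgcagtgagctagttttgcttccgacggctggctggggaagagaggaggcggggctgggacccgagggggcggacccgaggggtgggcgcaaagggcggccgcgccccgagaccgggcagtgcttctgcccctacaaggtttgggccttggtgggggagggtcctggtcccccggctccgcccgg
Tpm4: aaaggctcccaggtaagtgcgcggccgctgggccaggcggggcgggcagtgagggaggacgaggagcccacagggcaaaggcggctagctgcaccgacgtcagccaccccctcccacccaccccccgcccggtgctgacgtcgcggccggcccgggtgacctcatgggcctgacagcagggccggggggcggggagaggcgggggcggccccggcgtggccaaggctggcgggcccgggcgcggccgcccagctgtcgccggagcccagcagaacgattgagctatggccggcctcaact

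The CArG box of Actg1 began 90 bases before the start and that of Myl6 began 50 bases before it. The TEAD core of Tpm1 began 56 bases before the start, and further TEAD cores lay in the windows of Myh10 (7 bases before the start) and Myl12a (27 bases after it). Neither of the 2 Tpm3 windows and no Myh9 window held either motif. A match describes these letters only.

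Reads recovered from the FPKM values (fragments scaled by gene length and by sequencing depth) summed to 15663837 to 17806397 per library, and each of the 10 genes rested on 1017 to 38549 reads in each library. Counting error at the fewest reads was 0.572% to 3.14% of the value, while the SD between embryos of a group was 1.54% to 24.4% of the mean. Slmap lay at 23.3 to 25.4 FPKM in the controls and 23.5 to 26.5 FPKM in the libraries labelled cKO (limma adjusted p = 0.570). A lower Slmap level was thus not seen in the libraries labelled cKO. The value sums all exons over the whole tissue, and why it was not lower was not tested. Directions below follow the labels. Controls 3 and 4 stood apart from controls 1 and 2, and cKO 2 from the other libraries labelled cKO, in several of the genes below. Controls 3 and 4 also differed as whole libraries, with reads in 25832 and 25934 genes, against 23883 to 24071 in the others. The read total implied by their FPKM was 1.09 and 1.06 times the summed reads, against 0.969 to 1.01 in the others. The cause was not tested. Among cell type markers, smooth muscle, epithelial and fibroblast genes were abundant, while Twist2 itself and the striated muscle genes Myh3, Myh7 and Acta1 stayed under 1 FPKM in all 8 libraries.

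None of the 10 genes passed the threshold of 0.05 for the limma adjusted p, in a fit in which 0.0141% of all tested genes passed (2 of 14220). Their values nevertheless differed in pattern. The essential light chain gene Myl6 and the tropomyosin genes Tpm1 and Tpm2 had lower means in the libraries labelled cKO, Tpm3 and Tpm4 had higher means, and Actb, Myl12a and Myh9 had nearly equal means in both groups. At an unadjusted p under 0.05, 3 of the 10 were lower and 2 higher, against 9.87% and 12.6% of all genes. The groups did not overlap for 1 gene that was lower (background 5.75%) and 2 that were higher (background 9.61%). The median log2 fold change of the 10 was -0.01, against -0.00 for all tested genes. Since the library is made from whole tissue, fewer cells of a type and less RNA per cell cannot be told apart in any of these values.

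**Figure D1:**
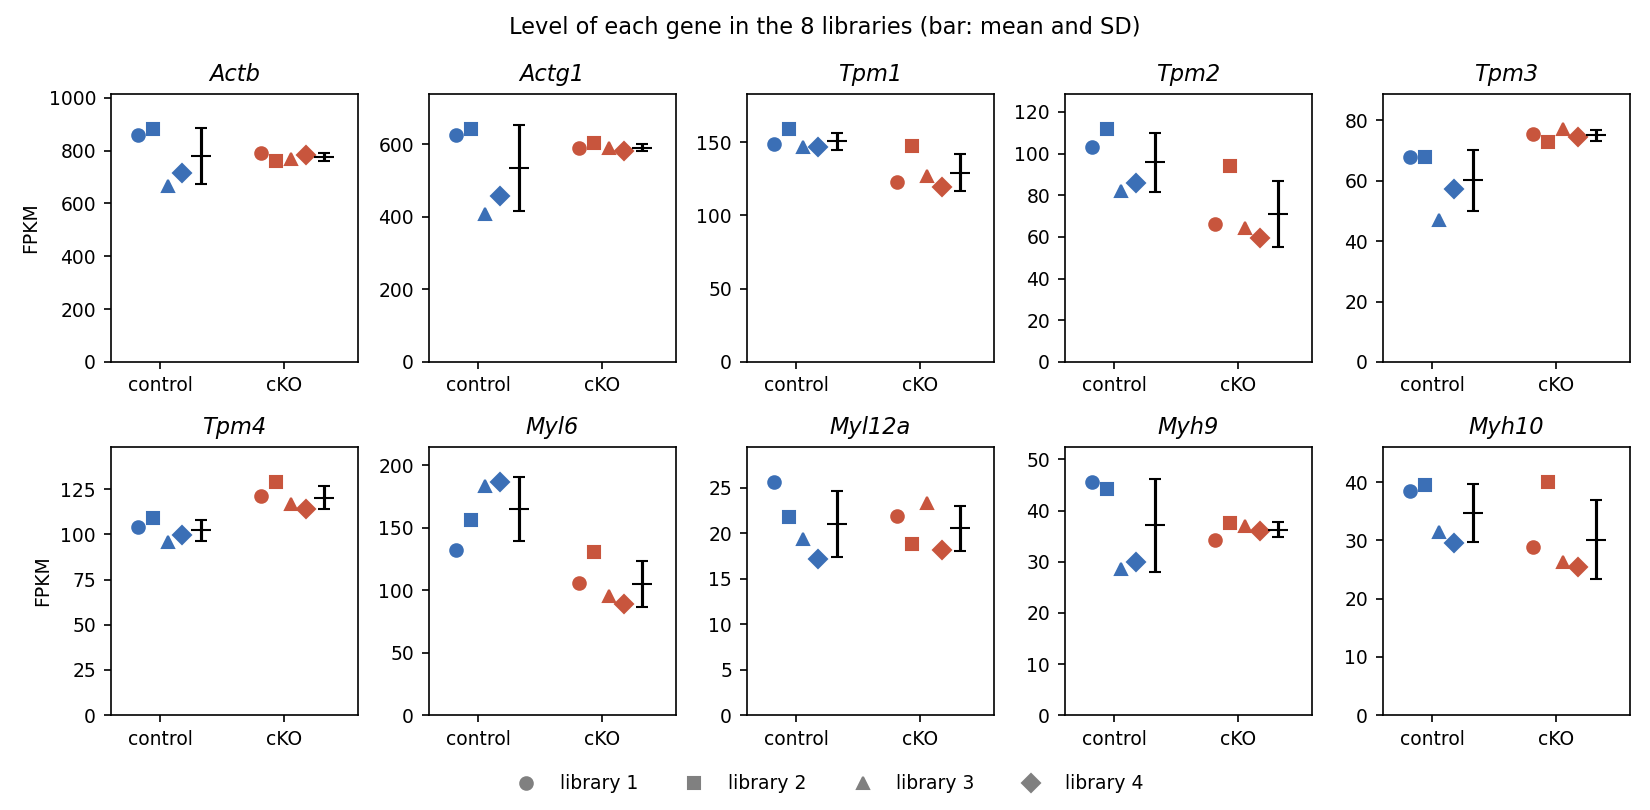
FPKM of each of the 10 genes in the 4 control (blue) and 4 cKO (red) libraries, with a marker shape for each library number and the group mean with its SD beside the points. Myl6 is lower and Tpm3 and Tpm4 are higher in all 4 cKO libraries than in any control, controls 3 and 4 are the lowest 2 libraries for Actb, Actg1, Tpm3 and Myh9, and cKO 2 lies at or above the control mean for Myh10.

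The cytoplasmic actins were the most abundant of the set and their levels spread mainly among the controls. Actb (ENSMUSG00000029580, chromosome 5, 142888870 to 142892509 on GRCm39), which encodes beta-actin, lay at 857, 883, 667 and 714 FPKM in controls 1 to 4 and at 791, 759, 770 and 784 FPKM in cKO 1 to 4. All 4 libraries labelled cKO thus lay between the lower and the upper pair of controls. The means were 780.3 ± 106 and 776 ± 14.3 FPKM (SD, n = 4 each), and the log2 fold change was 0.00 ± 0.12 (SE, adjusted p = 0.995 in limma). The 95% interval of the fold ran from 0.833 to 1.2, so changes inside it were not excluded. By mean FPKM Actb ranked 21 among the tested genes.

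Actg1 (ENSMUSG00000062825, chromosome 11, 120236516 to 120239368), which encodes gamma-actin, differs from beta-actin in a few residues near the start of the protein. Its level was 625, 644, 408 and 458 FPKM in controls 1 to 4 and 589, 604, 589 and 582 FPKM in cKO 1 to 4. The group ranges overlapped, with controls 3 and 4 lowest and controls 1 and 2 highest. The log2 fold change was 0.17 ± 0.16 (SE, adjusted p = 0.551 in limma), and -0.10 ± 0.08 without controls 3 and 4 (limma adjusted p = 0.421). Of the 100-base windows along the longest Actg1 transcript, 51.1% also occur in transcripts of other genes, most of them in Gm12715, which had a mean of 24.1 FPKM, so reads may have been split between them. For Actb that share was 1.10%.

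Within a library the ratio of Actg1 to Actb does not depend on the scaling between libraries. It was 0.730, 0.729, 0.611 and 0.642 in controls 1 to 4 and 0.744, 0.795, 0.765 and 0.743 in cKO 1 to 4. All 4 libraries labelled cKO lay above every control, the nearest controls by a narrow margin, and the means were 0.678 ± 0.061 and 0.762 ± 0.024 (SD, n = 4 each). After a correction for GC content and gene length within each library, the ratio was 0.606 to 0.718 in the controls and 0.753 to 0.797 in the libraries labelled cKO. No test was made of these ratios.

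**Figure D2:**
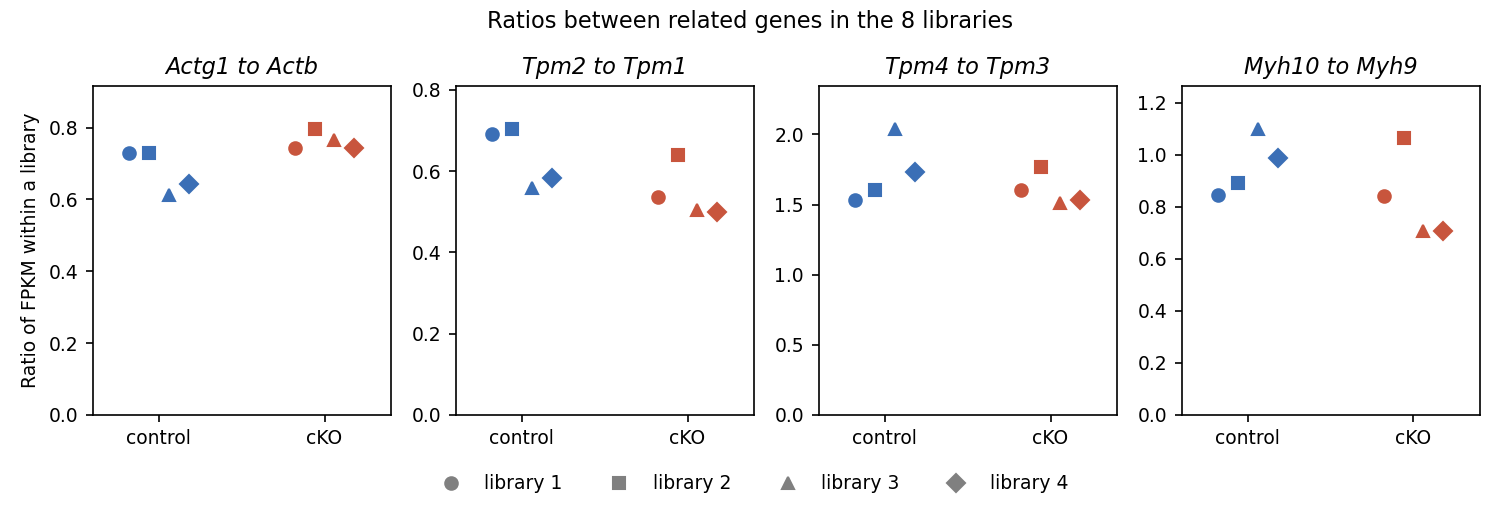
Ratio of FPKM between 2 related genes in each control (blue) and cKO (red) library, with a marker shape for each library number. The Actg1 to Actb ratio is 0.611 to 0.730 in the controls and 0.743 to 0.795 in the cKO libraries, while the other 3 ratios overlap between the groups.

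The tropomyosin genes diverged. Tpm2 (ENSMUSG00000028464, chromosome 4, 43514711 to 43523765), which encodes beta-tropomyosin and in the gut is rich in smooth muscle, lay at 103, 112, 82.0 and 85.6 FPKM in controls 1 to 4 and at 66.0, 94.2, 64.0 and 59.6 FPKM in cKO 1 to 4. Of the libraries labelled cKO, cKO 2 lay among the controls and the other 3 lay below all of them. The log2 fold change was -0.44 ± 0.16 (SE, adjusted p = 0.161 in limma), a fold of 0.738 with a 95% interval of 0.572 to 0.952. Tpm1 (ENSMUSG00000032366, chromosome 9, 66929872 to 66956688), the alpha-tropomyosin gene of muscle and many other cells, lay at 149, 159, 147 and 147 FPKM in controls 1 to 4 and at 123, 147, 127 and 119 FPKM in cKO 1 to 4. Again cKO 2 reached the control range, and the log2 fold change was -0.22 ± 0.09 (SE, adjusted p = 0.193 in limma).

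Tpm3 and Tpm4 had the opposite direction. Tpm4 (ENSMUSG00000031799, chromosome 8, 72884018 to 72906986), whose mouse product is a short cytoplasmic tropomyosin, lay at 104, 109, 95.7 and 99.5 FPKM in controls 1 to 4 and at 121, 129, 117 and 114 FPKM in cKO 1 to 4. All 4 libraries labelled cKO lay above every control, with a log2 fold change of 0.23 ± 0.08 (SE, adjusted p = 0.144 in limma). Tpm3 (ENSMUSG00000027940, chromosome 3, 89979956 to 90008209), the source of further cytoplasmic forms and of a slow-muscle form, lay at 68.0, 68.0, 47.0 and 57.4 FPKM in controls 1 to 4 and at 75.4, 72.95, 77.3 and 74.6 FPKM in cKO 1 to 4. The groups did not overlap here either, and controls 3 and 4 were the lowest of the 8. The log2 fold change was 0.33 ± 0.12 (SE, adjusted p = 0.159 in limma), and 0.14 ± 0.06 without controls 3 and 4 (limma adjusted p = 0.208). Of the 100-base windows of Tpm3, 11.8% also occur in Tpm3-rs7, a related gene that lay at 17.9 ± 4.76 and 22.5 ± 0.53 FPKM (SD, n = 4 each).

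Set against each other within a library, these opposite directions made the composition of tropomyosin transcripts differ. The 4 genes summed to 371 to 449 FPKM in the controls and 368 to 444 FPKM in the libraries labelled cKO, which overlapped. Of that sum Tpm3 and Tpm4 together gave 40.6%, 39.5%, 38.4% and 40.3% in controls 1 to 4 and 51.0%, 45.5%, 50.4% and 51.3% in cKO 1 to 4. Every library labelled cKO lay above every control, and cKO 2 was the closest to them. Singly, Tpm1 gave 35.1% to 39.5% in the controls and 31.9% to 33.2% in the libraries labelled cKO, and Tpm2 gave 22.0% to 25.0% and 16.2% to 21.2%. Tpm3 gave 12.6% to 16.02% in the controls and 16.4% to 20.3% in the libraries labelled cKO, and Tpm4 gave 24.3% to 25.8% and 29.1% to 31.4%. None of the 4 shares overlapped between the groups, but they are parts of one whole in each library and not separate observations. In FPKM, Tpm1 and Tpm2 did overlap between the groups. The size of each share depends on the gene lengths used. These were 6485 bases for Tpm1 and 2909 for Tpm2, while their longest transcripts have 2890 and 2175 bases. The sum of the 4 genes and the share of Tpm3 and Tpm4 were chosen after the values were seen and were not tested.

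**Figure D3:**
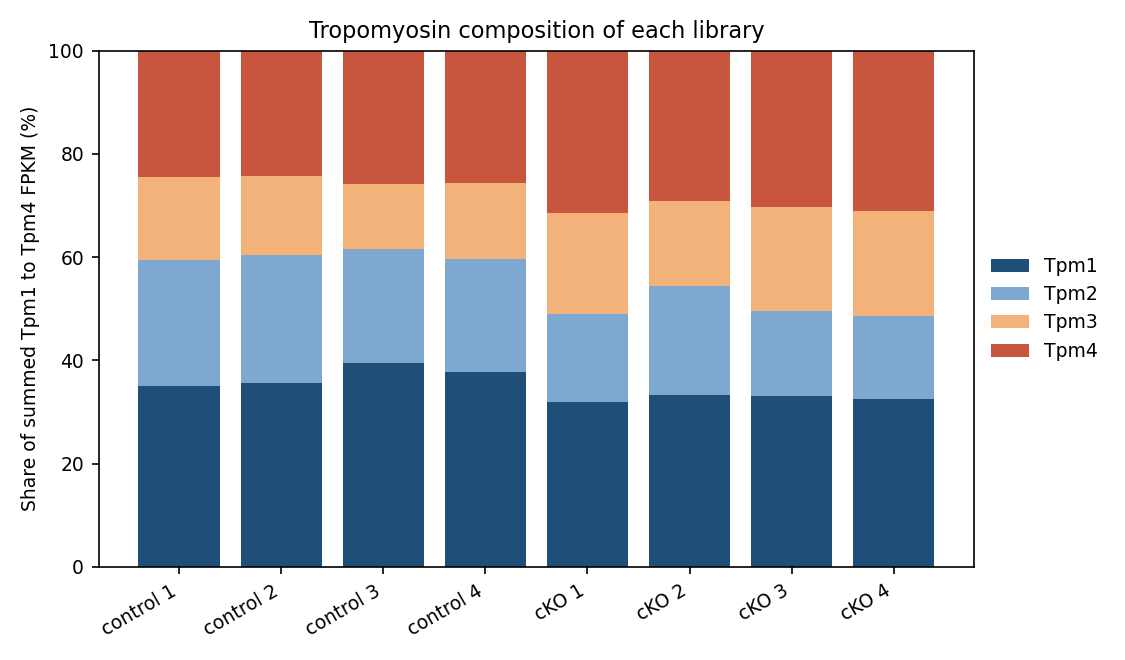
Share of the summed FPKM of Tpm1 to Tpm4 that each gene gave in each of the 8 libraries, in percent. Tpm3 and Tpm4 (orange and red) together take 38.4% to 40.6% in the controls and 45.5% to 51.3% in the cKO libraries.

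Within the pair Tpm1 and Tpm2 and the pair Tpm3 and Tpm4 the ratios overlapped between groups. The ratio of Tpm2 to Tpm1 was 0.559 to 0.703 in the controls and 0.499 to 0.638 in the libraries labelled cKO, and that of Tpm4 to Tpm3 was 1.53 to 2.04 and 1.51 to 1.77. For Tpm2 to Tpm1 the overlap came from cKO 2 at 0.638, since cKO 1, 3 and 4 lay at 0.537, 0.503 and 0.499, below every control.

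Among the myosin light chains, Myl6 had the largest fold change of the 10 genes. Myl6 (ENSMUSG00000090841, chromosome 10, 128326729 to 128330014) encodes the essential light chain shared by non-muscle and smooth muscle myosin. It lay at 132, 157, 184 and 187 FPKM in controls 1 to 4 and at 106, 130.5, 95.2 and 88.8 FPKM in cKO 1 to 4. All 4 libraries labelled cKO were below every control, by a narrow margin for cKO 2 against control 1. The log2 fold change was -0.65 ± 0.15 (SE, adjusted p = 0.0800 in limma), a fold of 0.638 with a 95% interval of 0.501 to 0.812. By p-value Myl6 ranked 405 of 14220 genes. Unlike the actins, Myl6 was highest in controls 3 and 4, and without these it stood at -0.47 ± 0.16 (limma adjusted p = 0.146).

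Myl12a (ENSMUSG00000024048, chromosome 17, 71300651 to 71309873), a regulatory light chain gene whose product switches the motor on when phosphorylated, lay at 25.6, 21.7, 19.4 and 17.2 FPKM in controls 1 to 4 and at 21.9, 18.8, 23.3 and 18.1 FPKM in cKO 1 to 4. The groups overlapped fully, with a log2 fold change of -0.02 ± 0.13 (SE, adjusted p = 0.938 in limma). Its neighbour Myl12b, which encodes a nearly identical protein, lay at 2.68 ± 0.86 and 2.41 ± 0.22 FPKM (SD, n = 4 each). The ratio of Myl12a to Myl12b ranged from 5.25 to 13.7 in the controls and from 6.73 to 10.8 in the libraries labelled cKO. Since 24.5% of the 100-base windows of Myl12a also occur in Myl12b, the level of either is uncertain.

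The heavy chains are the motors. Myh9 (ENSMUSG00000022443, chromosome 15, 77644787 to 77726375), the heavy chain of non-muscle myosin IIA, lay at 45.6, 44.2, 28.6 and 29.999 FPKM in controls 1 to 4 and at 34.3, 37.6, 37.0 and 35.9 FPKM in cKO 1 to 4. As with Actb, the libraries labelled cKO lay between the 2 pairs of controls, and the log2 fold change was -0.00 ± 0.16 (SE, adjusted p = 0.990 in limma). Against controls 1 and 2 alone it was -0.30 ± 0.07 (limma adjusted p = 0.0999), so the value rested on which controls entered. Myh10 (ENSMUSG00000020900, chromosome 11, 68582385 to 68707458), the heavy chain of non-muscle myosin IIB, lay at 38.6, 39.5, 31.4 and 29.6 FPKM in controls 1 to 4 and at 28.9, 40.1, 26.2 and 25.4 FPKM in cKO 1 to 4. Here cKO 2 was the highest of all 8 libraries and the other 3 labelled cKO were the lowest. The log2 fold change was -0.21 ± 0.16 (SE, adjusted p = 0.462 in limma), and -0.35 ± 0.12 without cKO 2 (limma adjusted p = 0.0980).

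The ratio of Myh10 to Myh9 was 0.845, 0.893, 1.10 and 0.987 in controls 1 to 4. It was 0.843, 1.07, 0.709 and 0.708 in cKO 1 to 4, with cKO 2 inside the control range. On the FPKM scale, which divides by length, the 2 heavy chains were thus about equally abundant, and both lay far below Myl6. The gene lengths used were 12928 bases for Myh9 and 10458 for Myh10, while their longest transcripts have 7433 and 7791 bases. The level of one heavy chain against the other therefore depends on the length used. The order of mean FPKM in the controls ran from Actb and Actg1 through Myl6, Tpm1, Tpm4, Tpm2 and Tpm3 to Myh9, Myh10 and Myl12a. It too depends on the gene lengths used. For Tpm1, Tpm3 and Tpm4 these were 6485, 6085 and 4269 bases, while the longest transcripts have 2890, 2374 and 2128 bases. For Myl6 they were close, at 3187 and 3040 bases. Myl6 and Tpm1 differed by less than the SD of Myl6, Tpm4 and Tpm2 by less than the SD of Tpm2, and Myh9 and Myh10 by less than either SD.

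Whether genes were called depended on cKO 2. Without it limma passed 3 of the 10 genes, all lower, where 4.13% of tested genes passed as lower and 5.53% as higher. These were Myl6 at -0.76 ± 0.14 (adjusted p = 0.0248), Tpm2 at -0.58 ± 0.12 (adjusted p = 0.0314) and Tpm1 at -0.29 ± 0.07 (adjusted p = 0.0448). With array quality weights, which gave cKO 2 the least weight of the 8 (0.329), the same 3 genes passed with adjusted p of 0.0170 to 0.0319 in limma, where 7.24% of genes passed as lower and 8.3% as higher. With every library and a term that set numbers 1 and 2 apart from 3 and 4, Myl6 alone passed (limma adjusted p = 0.0482), where 3.4% passed as lower and 4.32% as higher. Tpm3 and Tpm4 passed in none of the 23 alternative fits, with adjusted p of 0.0848 to 0.381 for Tpm3 and 0.0588 to 0.534 for Tpm4 in limma.

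**Figure D4:**
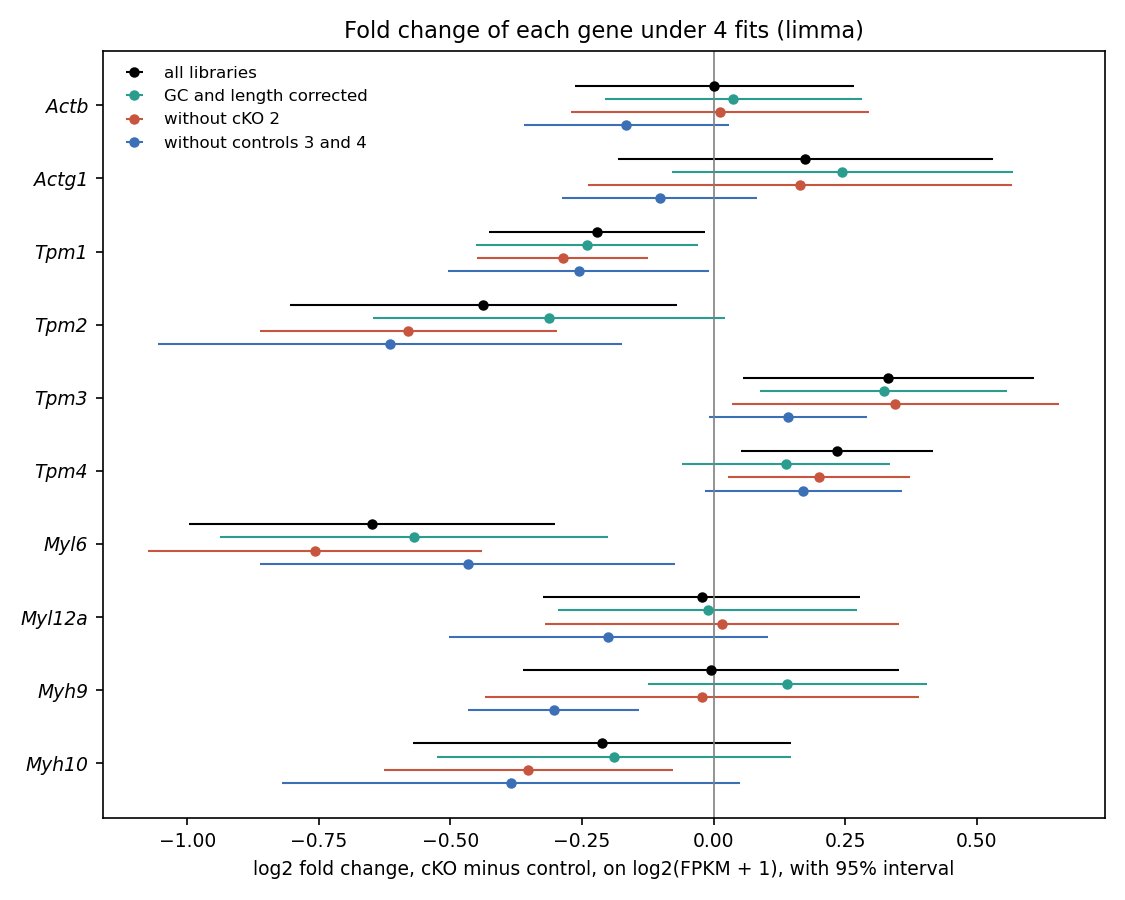
Log2 fold change (cKO minus control) on log2(FPKM + 1) with its 95% interval for each of the 10 genes, in the limma fit of all 8 libraries and in 3 alternative fits. Myl6, Tpm1 and Tpm2 lie below 0 and Tpm3 and Tpm4 above 0 in all 4, while Actb, Actg1, Myl12a and Myh9 change sign between them.

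Fold changes in these libraries moved with the GC content of the transcript. The median log2 fold change of all tested genes was 0.16 in the quartile of lowest GC content and -0.17 in that of the highest. Tpm4, at 45.9% GC, and Tpm2, at 55.1%, lay on the sides where genes of their GC content were commonly higher and lower. After the correction for GC content and length Tpm4 had a log2 fold change of 0.14 and Tpm2 of -0.31, against 0.23 and -0.44 before. Myl6 (53.1% GC) then had -0.57, Tpm1 (49.7%) had -0.24 and Tpm3 (50.04%) had 0.32, and the lowest limma adjusted p among the 10 genes was 0.368. Myh9, at 57.0% GC the highest of the set, turned from -0.00 to 0.14. The corrected share of Tpm3 and Tpm4 among the tropomyosins was 38.7% to 42.1% in the controls and 45.2% to 50.2% in the libraries labelled cKO, which again did not overlap.

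**Figure D5:**
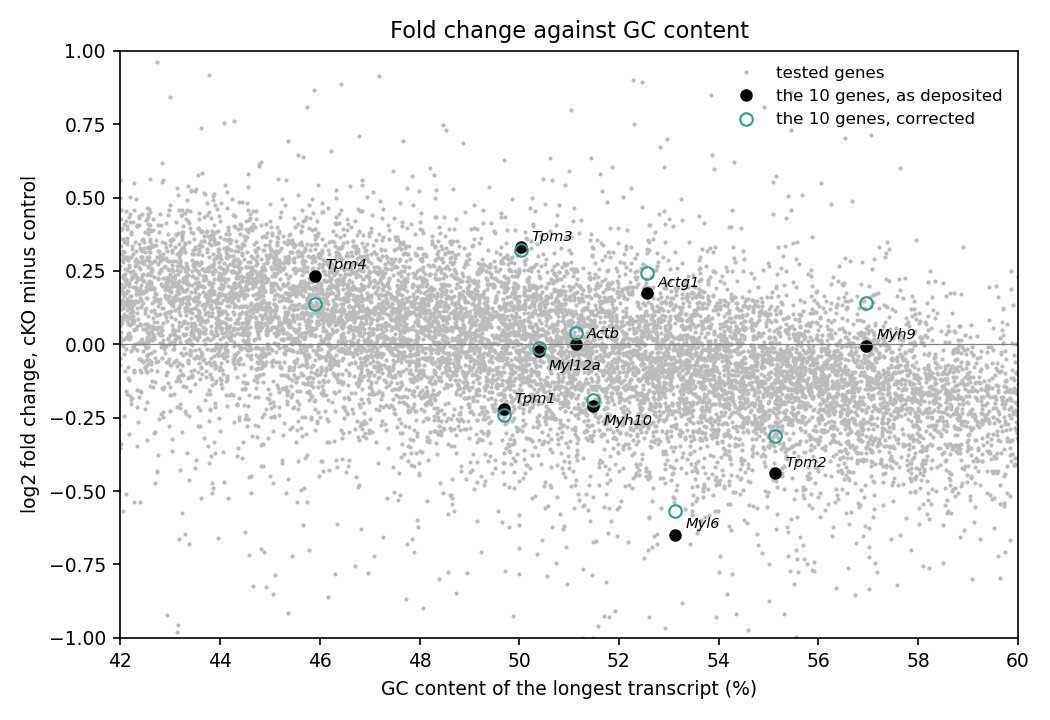
Log2 fold change (cKO minus control) against the GC content of the longest transcript for the tested genes within the plotted range (grey) and for the 10 genes before (black) and after (green rings) the correction for GC content and length. Myl6 moves from -0.65 to -0.57, Tpm2 from -0.44 to -0.31, Tpm4 from 0.23 to 0.14 and Tpm3 from 0.33 to 0.32.

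Markers of cell types that hold these proteins were measured beside them. The 6 visceral smooth muscle markers summed to 1569, 1725, 1204 and 1240.4 FPKM in controls 1 to 4 and to 1170, 1471, 1080 and 1081 FPKM in cKO 1 to 4, so the groups overlapped and cKO 2 was again the highest of its group. None of the 6 passed in limma, 5 of them had a log2 fold change below 0, and their median was -0.24. Des, the muscle intermediate filament gene, lay at 54.7 ± 8.32 and 38.5 ± 4.70 FPKM, and Cnn1, an actin-binding protein gene of smooth muscle, at 86.8 ± 9.90 and 69.6 ± 10.5 FPKM (SD, n = 4 each). The 5 mesothelial markers, Lrrn4 and Msln among them, summed to 37.1 to 63.2 FPKM in the controls, highest in controls 3 and 4, and to 26.6 to 30.9 FPKM in the libraries labelled cKO, and all 5 had a log2 fold change below 0. The 4 immune markers, with Ptprc under 1 FPKM in all libraries, summed to 29.6 to 37.5 FPKM in the controls and 18.1 to 28.2 FPKM in the libraries labelled cKO, with C1qa at 13.9 ± 1.27 and 9.50 ± 2.31 FPKM and Tyrobp at 11.015 ± 2.40 and 6.74 ± 1.85 FPKM (SD, n = 4 each). The 6 epithelial markers summed to 770.4 to 1045 FPKM and 842 to 1153 FPKM, with all 6 above 0 in log2 fold change, and cKO 2 was the lowest of its group at 842 FPKM. Of these, Cdh1 lay at 86.9 ± 10.03 and 108.3 ± 15.6 FPKM and Epcam at 309.9 ± 28.2 and 369.8 ± 40.3 FPKM. Fibroblast markers summed to 424 to 762 FPKM and 373 to 673 FPKM, with Pdgfra at 20.5 ± 0.73 and 22.6 ± 0.85 FPKM and Col1a1 at 293 ± 102 and 217 ± 69.5 FPKM. Enteric neuron markers summed to 48.6 to 79.7 FPKM in the controls and 51.6 to 83.4 FPKM in the libraries labelled cKO, and enteric glia markers to 18.1 to 21.3 FPKM and 14.0 to 26.6 FPKM, with cKO 2 the highest of all 8 libraries in both. Endothelial markers summed to 35.3 to 68.8 FPKM and 50.5 to 61.03 FPKM, and erythroid markers to 123 to 501 FPKM and 215 to 495 FPKM. The part of these cell types in the values of the 10 genes was not tested.

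Further genes of the actomyosin system were taken from lists by role, with 102 of 105 genes tested. None passed in limma, and at an unadjusted p under 0.05 there were 14 lower and 19 higher, where 9.87% and 12.6% of all tested genes were so. Their median log2 fold change was 0.02. In all 5 other myosin II subunit genes the log2 fold change was negative, and the median was -0.08. Myl9, the regulatory light chain of smooth muscle, lay at 473, 506, 386 and 376 FPKM in controls 1 to 4 and at 283, 416, 256 and 236 FPKM in cKO 1 to 4, with only cKO 2 inside the control range (log2 fold change -0.57 ± 0.19, SE; limma adjusted p = 0.132). Myh11, the smooth muscle heavy chain, lay at 143 ± 36.6 and 121 ± 21.4 FPKM (SD, n = 4 each). Among muscle actins, Actg2 of visceral smooth muscle lay at 587 ± 124 and 487 ± 64.8 FPKM, and Acta2, the alpha-actin of smooth muscle, at 560.3 ± 76.9 and 483 ± 84.5 FPKM. Actc1, the cardiac alpha-actin, lay at 8.39 to 12.8 FPKM in the controls and at 12.84 to 35.4 FPKM in the libraries labelled cKO, and the groups touched without overlapping.

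Of the 13 genes that set the phosphorylation of the regulatory light chain, 8 lay below 0 and 5 above. Ppp1cb, the catalytic subunit of myosin phosphatase, lay at 30.1 to 32.1 FPKM in the controls and 40.5 to 42.2 FPKM in the libraries labelled cKO (log2 fold change 0.41 ± 0.06, SE; limma adjusted p = 0.0606). It had 0.23 after the GC and length correction, its transcript being 40.8% GC. Ppp1r12c, a targeting subunit of that phosphatase, lay at 16.2 to 19.6 FPKM and 11.2 to 14.3 FPKM (log2 fold change -0.50 ± 0.10, SE; limma adjusted p = 0.0758), with -0.26 after correction.

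Most genes of actin nucleation had a log2 fold change above 0, namely 16 of 21, with a median of 0.12, against 7073 of the 14220 tested genes above 0. Counts and medians of this and the other lists were taken before the GC and length correction. They were not matched for GC content with all tested genes. Actr3, a core subunit of the Arp2/3 complex, lay at 82.3 ± 7.51 and 107 ± 6.65 FPKM, and the formin gene Fhod1, in the other direction, at 6.60 ± 0.68 and 4.86 ± 0.41 FPKM (SD, n = 4 each). Of the 6 tested genes for filament capping, including the tropomodulins that bind tropomyosin at the pointed end, 5 lay above 0 with a median of 0.20. Tmod3 lay at 12.1 ± 1.09 and 15.48 ± 0.74 FPKM, and the capping protein subunit gene Capza2 at 35.6 ± 1.44 and 43.9 ± 2.07 FPKM. Of the 19 genes of monomer binding and severing 11 lay below 0. In that list Cfl2, a cofilin of muscle and other cells, lay at 29.6 ± 1.16 and 38.8 ± 2.19 FPKM, and destrin (Dstn) at 269.6 ± 17.9 and 342 ± 20.1 FPKM. The transcripts of Actr3, Tmod3, Capza2, Cfl2 and Dstn were 43.8%, 40.6%, 36.1%, 36.9% and 45.6% GC, on the side where genes were commonly higher. The GC and length correction took the log2 fold change of Actr3 from 0.37 to 0.24, that of Tmod3 from 0.33 to 0.15 and that of Capza2 from 0.29 to 0.10. For Cfl2 it went from 0.38 to 0.19, for Dstn from 0.34 to 0.26 and for Fhod1, at 58.5% GC, from -0.37 to -0.19.

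Of 15 genes for crosslinkers and caldesmon 10 lay below 0, Flnc at 14.7 ± 1.19 and 10.9 ± 2.03 FPKM and Zyx, an adhesion protein gene, at 21.8 ± 2.24 and 17.2 ± 3.21 FPKM. Corrected for GC content and length, Flnc moved from -0.41 to -0.24 and Zyx from -0.34 to -0.19 in log2 fold change. Of 8 brush border actin genes 6 lay above 0. Eps8 lay at 10.01 to 10.5 FPKM in the controls and at 8.79 FPKM in cKO 2 against 14.5 to 16.9 FPKM in the other 3, and Espn at 2.58 ± 0.25 and 2.13 ± 0.20 FPKM (SD, n = 4 each). The log2 fold change of Espn, at 62.1% GC, turned from -0.19 to 0.04 after the GC and length correction.

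The profiles of 3 of the genes over the 8 libraries were set against those of 12268 other protein-coding genes by the root mean square difference in log2 deviation from the gene mean. For Actb the nearest were Snrk (0.015), Ube2j2 (0.019) and Dap (0.030), against a median gene at 0.190. For Myl6 they were Lgals1 (0.0898), Nrg2 (0.0900) and Thap3 (0.109), against a median of 0.431. Lgals1, the galectin-1 gene, lay at 261, 270, 325 and 340 FPKM in controls 1 to 4 and at 173, 251, 169.8 and 146 FPKM in cKO 1 to 4, so controls 3 and 4 were highest there as in Myl6. For Myh10 the nearest were Mex3b (0.046), Armcx4 (0.047) and Anxa6 (0.050), against a median of 0.282, and in Mex3b and Anxa6 cKO 2 was the highest of the 8 libraries, as in Myh10. These genes were picked for their nearness over the same 8 libraries, so shared high libraries and distances below the median follow from the choice.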

How the data were processed

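The authors deposited 1 table of FPKM values for 55681 genes in 8 libraries, with gene length, position and biotype. A further 3 lines were blank in the copy used. Tools named in the submitters' processing notes, with no role given, are featureCounts, HISAT2, fastp, CASAVA and DESeq2 1.20.0, and the build named there is GRCm39. The strand setting was not given in the sources used here. Columns were matched to libraries by name. FPKM times gene length, divided by the smallest value of the library, was whole within 0.01 for 100% of nonzero values, and the result was used as the read number. PCR copies are included, so counting errors are minimum errors.

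Groups were compared with limma 3.58.1 (R 4.3.3), using an intensity trend on log2(FPKM + 1), for genes that averaged 1 FPKM or more, 2-sided, with Benjamini-Hochberg adjustment over all 14220. Fold changes on this scale understate those of low genes. The p-values reflect only how far these embryos spread, since no litter or batch is named. GC content came from the longest GENCODE M21 transcript (93.5% of genes), and the correction was a spline with 4 degrees of freedom for GC content and for length in each library. Shared 100-base windows came from the same transcripts. The script was tested on simulated reads.

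The 10 genes and all lists were chosen with earlier results of these data known. From each list the rule names up to 4 genes past the threshold, or the 2 of smallest p where none passed, and the 3 genes nearest to Actb, Myl6 and Myh10. For the striated muscle, neuron, glia, endothelial and erythroid lists the text gives no such genes. Acta1, Acta2, Myh3, Myh7, Myl12b, Ptprc, Tpm3-rs7 and Twist2 were named beyond that rule after their values were seen. Other pseudocounts, filters, scalings, weights, terms, left-out libraries and limma-voom on the reads were tried. One further list by role is counted in the total of 105 genes and not reported here.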

Additional observations from a re-analysis of the deposited data

Results flagged for a closer look

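Of 50 groups of 4 values examined, 2 held a library far from the other 3. Chance flags about 1 group in 20 where the groups are separate observations. Many of these groups share values, as the tropomyosin shares do, so no verdict on chance was drawn for the 2 flagged groups. Both concern the share of tropomyosin FPKM given by Tpm3 and Tpm4 in the libraries labelled cKO, and they are the same quantity before and after the correction for GC content and length. In cKO 2 the share was 45.5%, against 50.4% to 51.3% in the other 3. After the correction it was 45.2%, against 49.5% to 50.2%. The same library lay inside or near the control range for Tpm1, Tpm2, Myh10 and Myl9, and its sum of smooth muscle markers was the highest of its group. Other lists stood apart there as well. Epithelial markers summed to 842 FPKM in cKO 2 against 1102.5 to 1153 FPKM in the other 3, and brush border actin genes to 217 FPKM against 366 to 383 FPKM, below every control. Enteric glia markers summed to 26.6 FPKM against 14.0 to 16.04 FPKM, and enteric neuron markers to 83.4 FPKM against 51.6 to 63.4 FPKM. The cause was not tested.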

How the results depend on the processing

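Over 23 alternative fits, 6 of the 10 genes kept their direction in every one, namely Tpm1, Tpm2, Tpm3, Tpm4, Myl6 and Myh10. Several of these fits could not turn a direction, because they leave the fold change of a gene as it is. They are the fits without a filter, with a filter at 5 FPKM, with protein-coding genes only and without the intensity trend. The replicate block and the term for library numbers leave it unchanged as well, and all of these alter only the p-values. The count of genes that passed among the 10 was 0 in the main limma fit, 3 with array quality weights, 1 with a term for numbers 1 and 2 against 3 and 4, and 0 to 3 with 1 library left out. Over all genes, 2 passed in the main fit (with 1790 higher and 1403 lower before adjustment, p under 0.05). This number was 0 with a pseudocount of 0.1 or 5, without a filter and with limma-voom on the reads. It was 45 with a filter at 5 FPKM, 1 with protein-coding genes only, 34 with quantile normalization, 27 with scaling by summed reads, 2209 with array quality weights, 1099 with the term for library numbers and 4 after the GC and length correction. With 1 library left out it was 0 to 1378, the highest without cKO 2.

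Directions turned for Actb, Actg1, Myl12a and Myh9. Actb had a log2 fold change of -0.070 with scaling by summed reads, -0.059 with array quality weights and -0.17 without controls 3 and 4. Actg1 had -0.10 without controls 3 and 4, and Myh9 had 0.14 after the GC and length correction. With 1 library left out, Actb ranged from -0.070 to 0.065, Myl12a from -0.11 to 0.074 and Myh9 from -0.11 to 0.10. The mean share of Tpm3 and Tpm4 was 9.87 percentage points higher in the libraries labelled cKO, 8.20 after the correction (added after the data were seen), and 9.28 to 11.2 with 1 library left out. The Actg1 to Actb ratio differed by 0.062 to 0.101 with 1 library left out.

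Deviations from the group means correlated at 0.069, 0.326, 0.151 and 0.213 within numbers. Since 1 of these was under 0.1 and no label ties a number to a litter or day, the numbers were not taken to pair the libraries. Correlations were positive wherever both numbers were 1 or 2, or both 3 or 4 (highest 0.387), and negative across these sets (-0.361 to -0.063). Deviations within a group sum to 0 for each gene. Positive correlations inside the sets therefore require negative ones across them, which are not a separate observation. With the number as a replicate block 0 genes passed in all and 0 of the 10.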
